A study of Mus musculus with 20 samples.

Results

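Cells make cholesterol from acetyl-CoA, and the enzymes of that route are switched on together by the sterol-sensing transcription factors SREBP. The 30 genes described here cover that route and its control in mouse, and were taken by gene symbol from a table of 54304 genes. All 30 were in the table and all 30 passed the filter on low values, which kept 17435 genes. They comprise 7 regulators, 5 genes of acetyl-CoA condensation and the mevalonate steps, 3 of the isoprenoid steps, 11 of the squalene and sterol steps, and 4 of sterol efflux and transport.

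SREBP precursors, encoded by Srebf1 and Srebf2, sit in the endoplasmic reticulum bound to the escort protein Scap. When sterols are plentiful, Insig1 and Insig2 hold Scap in place, and when sterols fall Scap carries the precursor to the Golgi, where the proteases of Mbtps1 and Mbtps2 cut it and free the factor. The released factor binds sterol response elements in the promoters of the cholesterol enzymes, usually beside sites for the factors NF-Y and Sp1. Surplus sterol instead acts through the liver X receptors (LXR), which raise the exporters Abca1 and Abcg1. White fat is a large store of unesterified cholesterol, much of it in adipocytes.

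RNA was sequenced from cells sorted out of the gonadal white fat of male mice. FIPs (fibro-inflammatory progenitors) were CD45- CD31- PDGFRb+ LY6C+ cells. APCs (adipogenic visceral adipocyte precursor cells) were CD45- CD31- PDGFRb+ LY6C- CD9- cells. The labels give 8-week-old males, housed at 30 °C, with 1 month of a diet that drew 60% of its kcal from fat, for both genotypes, and 10 mice of each. The 4 groups, of 5 libraries each, were FIPs of Mural-Zfp423TG mice, FIPs of control mice, APCs of Mural-Zfp423TG mice and APCs of control mice. The line's name ties a Zfp423 transgene to mural cells, the contractile cells around vessels. Its promoter, its induction and the exact genotype of the controls are left unstated in the sources used here. Each library pooled RNA of 2 mice, so the FIP and APC libraries of a genotype must have drawn on the same mice, and which library shares mice with which is not stated. The libraries are called labelled transgenic below because Zfp423 itself was not raised in them. In FIPs Zfp423 averaged 5.53 ± 0.04 in labelled transgenic and 5.47 ± 0.12 log2 CPM in control libraries, a difference of 0.06 (adjusted p = 0.93). In APCs it averaged 4.70 ± 0.27 in labelled transgenic and 4.97 ± 0.17 log2 CPM in control libraries, a difference of -0.26 (adjusted p = 0.11; SD, n = 5 each).

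The deposited values are log2 CPM, the log2 of read counts scaled to a common library total, on which 1 unit is a 2-fold difference, and CPM values of 1 or less are listed as 0. The steps of the low values put the depth of the libraries between 6.6 and 8.5 megareads counted. Differences, standard errors and adjusted p values come from limma fitted to the 17435 genes of all 20 libraries at once, with Benjamini-Hochberg adjustment over all of them, and a call is an adjusted p under 0.05. Each difference is in log2 units, FIPs minus APCs or labelled transgenic minus control. Within a group, libraries correlated at 0.980 to 0.994 over the genes tested. The 6 FIP markers (Ly6c1, Ly6c2, Cd9, Dpp4, Pi16 and Cd55) were all higher in FIPs than in APCs in both genotypes. The sorting gates used LY6C and CD9, so for Ly6c1, Ly6c2 and Cd9 this direction follows from the sort. Of 5 APC markers, 3 were lower in FIPs in each genotype, while 1, Dlk1, was higher in control FIPs (0.79, adjusted p = 0.04996). Sorted cells were not free of RNA of other cell types: hemoglobin transcripts reached 8.78 log2 CPM in the highest library, and all 8 adipocyte markers were above 0 in every library. In bulk RNA, fewer cells of a type and less RNA per cell cannot be told apart.

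Sequence context is shown first for 5 of the genes. Mvd, Hsd17b7 and Dhcr7 were higher in FIPs of both genotypes, Hmgcs1 was not called in either, and Sc5d was lower in both. Idi1 and Ggps1 were also among the enzymes that were not higher. Each run holds up to 250 bases before the start of transcription, 5′ to 3′ on the gene's strand, from RefSeq on GRCm38.p6, and stops where the gene begins in GENCODE. Capitals mark CCAAT on either strand, the letters bound by NF-Y, and in Hmgcs1 the sterol response element TCACNCCAC. Mvd lies at chr8:122443423-122443672 on the minus strand, Hsd17b7 at chr1:169969242-169969455 minus, Dhcr7 at chr7:143822917-143823144 plus, Hmgcs1 at chr13:119690101-119690350 plus and Sc5d at chr9:42264301-42264550 minus.
Mvd: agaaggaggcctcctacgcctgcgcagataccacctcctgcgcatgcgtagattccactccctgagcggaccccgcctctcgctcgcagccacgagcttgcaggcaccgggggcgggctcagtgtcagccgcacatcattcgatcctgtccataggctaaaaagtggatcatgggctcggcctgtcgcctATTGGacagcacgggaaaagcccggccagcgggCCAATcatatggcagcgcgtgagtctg
Hsd17b7: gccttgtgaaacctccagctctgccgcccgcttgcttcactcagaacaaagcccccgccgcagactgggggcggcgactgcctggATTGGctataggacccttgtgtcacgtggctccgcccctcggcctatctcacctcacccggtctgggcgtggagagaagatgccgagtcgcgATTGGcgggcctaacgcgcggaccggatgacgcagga
Dhcr7: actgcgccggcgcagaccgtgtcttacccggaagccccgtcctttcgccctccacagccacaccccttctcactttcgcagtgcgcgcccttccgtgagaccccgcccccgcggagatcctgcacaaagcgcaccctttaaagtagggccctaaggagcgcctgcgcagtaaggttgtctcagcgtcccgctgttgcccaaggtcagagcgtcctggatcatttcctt
Hmgcs1: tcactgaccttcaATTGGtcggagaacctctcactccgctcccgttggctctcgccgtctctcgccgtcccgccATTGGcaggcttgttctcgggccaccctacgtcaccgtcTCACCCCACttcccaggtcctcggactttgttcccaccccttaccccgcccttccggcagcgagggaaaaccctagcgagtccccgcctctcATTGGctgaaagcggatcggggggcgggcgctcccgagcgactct
Sc5d: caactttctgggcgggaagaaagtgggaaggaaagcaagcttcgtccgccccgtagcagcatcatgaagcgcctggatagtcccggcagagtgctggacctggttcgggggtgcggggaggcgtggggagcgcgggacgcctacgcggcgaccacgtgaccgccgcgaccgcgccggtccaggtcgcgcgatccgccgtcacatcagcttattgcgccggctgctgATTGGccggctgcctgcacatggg

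Promoter windows of 250 bases before to 50 after the start were at hand for 25 of the 30 genes. CCAAT, searched on both strands, occurred in 20 of 25 (80.0%), against 42.39% of the 11680 tested genes with a window and 41.06% of all 27025. The Sp1 letters GGGCGG occurred in 22 of 25 (88.0%), against 64.99% of tested genes. The sterol response element TCACNCCAC occurred in Hmgcs1 alone (4.0%), against 1.42% of tested genes. The palindrome TCACGTGA (2.0% of tested genes) was in none of the 25 windows. A gene could have several starts, on average 1.32 windows for these genes and 1.28 for tested genes. CCAAT thus stood both in genes that were higher in FIPs, such as Mvd and Hsd17b7 with 2 copies each in the runs above, and in Sc5d, which was lower there and has 1. Hmgcs1, which did not pass, has 3, and the run of Dhcr7, which was higher, has 0, although CCAAT occurred in the full promoter windows of Dhcr7, beyond the printed run. No motif contains another, and a match in a window is a description of its letters only.

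Levels can be compared between genes only per length, here as log2 CPM per kilobase of merged exons, averaged over the 20 libraries. Insig1, the sterol-sensing anchor, had the highest level per length at 5.84, followed by Srebf2 at 5.44, Srebf1 at 5.27, Hmgcs1 at 5.15 and Abca1 at 5.11. The lowest were Fdps at 0.53, Abcg1 at 0.79, Tm7sf2 at 1.75, Mbtps2 at 1.85 and Lss at 2.03. Merged exons can be longer than any transcript, which lowers the value per length. For Fdps they span 4.208 kb, although 1062 bases make up 76.8% of its longest protein-coding transcript. Fdps also shares 1124 exonic bases (26.7%) with Gm43738 on the same strand. Mbtps2 shares 2867 (28.4%) with Yy2 and Tm7sf2 532 (12.1%) with Vps51, also on the same strand. How such reads were counted is not stated. The ranks thus depend on the annotation. The library kit named in the labels does not mark strand, so reads over exons shared with a gene on the other strand cannot be assigned by strand. The overlap with an expressed gene was largest for Fdft1, where 774 exonic bases are shared with Ctsb on the opposite strand, a gene at 8.78 log2 CPM. Several genes also have near-identical copies, which makes their values uncertain. Fdps resembles the processed pseudogene Gm3571 at 98.87% identity over 1062 bases, and Gm3571 was itself listed at a mean of 2.58 log2 CPM. Acat2 resembles Acat3 at 97.7% over 1477 bases, and Idi1 matches the pseudogene Gm13502 at 100% over 684 bases.

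The first question was how the pathway differs between the 2 progenitor populations. In labelled transgenic mice 19 of the 30 genes were higher in FIPs than in APCs and 2 were lower, while in control mice 16 were higher and 5 lower. Higher were thus 63.3% of the 30 in labelled transgenic and 53.3% in control mice, against 22.7% and 19.6% of all tested genes. Lower were 6.67% and 16.7% of the 30, against 19% and 27.9% of all tested genes. In either direction, 41.7% and 47.5% of all tested genes were called. The median difference over the 30 was 0.31 in labelled transgenic mice, against -0.01 over all tested genes, and 0.21 in control mice, against -0.06 over all tested genes. FIP and APC values did not overlap for 14 genes higher and 1 lower in FIPs of labelled transgenic mice, against 16.6% and 12.4% of all tested genes (29% either way). In control mice this held for 9 higher and 4 lower, against 14.6% and 16.7% (31.4% either way). The largest differences were those of Mvd, Dhcr7, Hsd17b7, Fdps and Tm7sf2 in both genotypes.

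**Figure D1:**
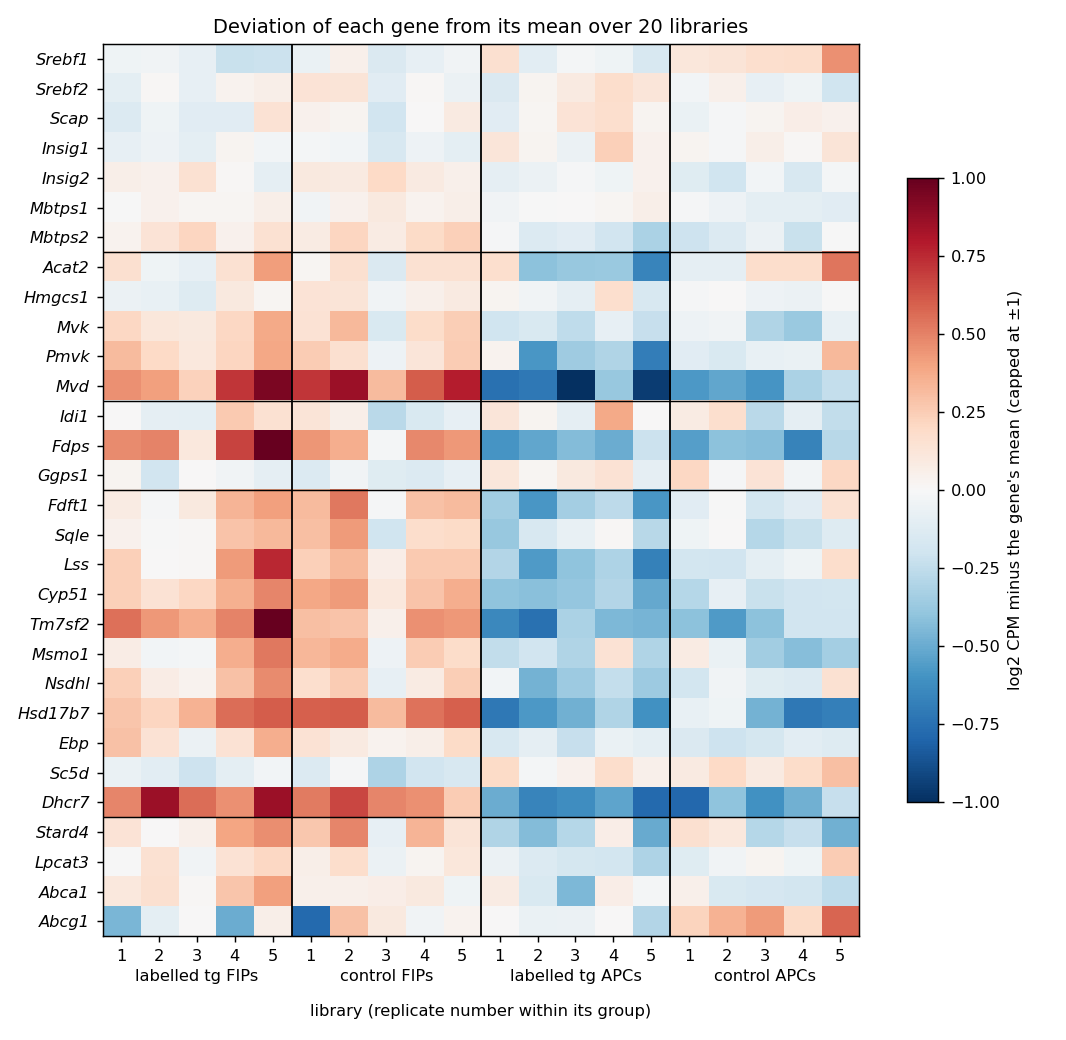
Deviation of each of the 30 genes (rows, by role) from its mean over the 20 libraries, in log2 CPM (colour scale), with libraries in columns by group. The FIP columns sit above the gene's mean and the APC columns below it for Mvd, Dhcr7, Hsd17b7, Cyp51, Tm7sf2 and, except for control FIP replicate 3, Fdps, while Sc5d is below its mean in FIPs.

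Markers of other cell types moved with the comparison as well. In control mice 6 of 6 erythroid, 8 of 8 adipocyte, 8 of 8 mural, 6 of 7 endothelial, 4 of 5 mesothelial and 2 of 14 macrophage markers were lower in FIPs, and 1 endothelial marker was higher. The mean of the adipocyte markers ranged from 6.71 to 6.94 log2 CPM in control FIPs, against 7.19 to 7.77 in control APCs, and that of the erythroid markers from 5.11 to 5.22, against 5.87 to 6.80. In labelled transgenic mice the calls were fewer: lower in FIPs were 3 of 6 erythroid, 2 of 8 adipocyte, 4 of 8 mural, 1 of 5 mesothelial, 1 of 14 macrophage and none of 7 endothelial markers. There the adipocyte mean ranged from 6.11 to 6.94 in FIPs, against 6.68 to 7.45 in APCs, and the erythroid mean from 4.56 to 5.33, against 5.002 to 6.30. Among the defining markers, the erythroid gene Slc4a1 was listed at 0 in 11 libraries and the macrophage gene Fcgr1 in 5. With the erythroid mean as a covariate, 9 of the 30 genes were called in control mice in place of 21, and with the adipocyte mean 11. Over all tested genes the calls were 4156 with the erythroid and 5730 with the adipocyte mean, in place of 8288. The median difference of the 30 in control mice was 0.16 under both covariates, in place of 0.21. Mvd, Dhcr7, Hsd17b7, Cyp51, Tm7sf2, Sc5d, Mbtps2 and Insig2 were 8 of the 9, and the other was Pmvk. In labelled transgenic mice, where the adipocyte and erythroid means overlapped between the populations and the mural mean did not (5.29 to 5.66 in FIPs, against 5.74 to 6.12 in APCs), 18 of the 30 were called under either covariate in place of 21, with a median of 0.29 under the erythroid and 0.28 under the adipocyte covariate in place of 0.31. Over all tested genes the calls there were 7182 and 7296, in place of 7275. The part of other cell types in the differences was not tested beyond these values.

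Among the regulators, the protease gene Mbtps2 was higher in FIPs of both genotypes and Mbtps1 in those of control mice, while neither SREBP gene was higher. Counted over the 7 regulators, 1 was higher and 1 lower in FIPs of labelled transgenic mice, and 3 were higher and 2 lower in control mice. In labelled transgenic mice these were 14.3% each, against 22.7% higher and 19% lower of all tested genes. In control mice they were 42.9% and 28.6%, against 19.6% higher and 27.9% lower. Apart from those higher in control mice, the shares were near or below those of all tested genes. Mbtps2 is the site-2 protease, which makes the second cut. Mbtps2 had 5.22, 5.32, 5.40, 5.23 and 5.34 log2 CPM in the labelled transgenic FIPs, against 5.17, 5.05, 5.07, 4.99 and 4.87 in the labelled transgenic APCs. For Mbtps2, control FIPs gave 5.27, 5.40, 5.27, 5.38 and 5.42 log2 CPM, against 4.98, 5.05, 5.13, 4.96 and 5.18 in control APCs. All FIP libraries exceeded all APC libraries of their genotype, on average by 0.27 ± 0.06 in labelled transgenic mice (adjusted p = 0.00084) and 0.29 ± 0.06 in control mice (adjusted p = 0.0005; SE). Mbtps1, the site-1 protease, makes the first cut. Mbtps1 had 8.09, 8.14, 8.11, 8.11 and 8.15 log2 CPM in the labelled transgenic FIPs, against 8.06, 8.09, 8.10, 8.11 and 8.15 in the labelled transgenic APCs. For Mbtps1, control FIPs gave 8.06, 8.14, 8.19, 8.13 and 8.15 log2 CPM, against 8.08, 8.04, 8.0, 8.0 and 7.98 in control APCs. The labelled transgenic ranges were nearly the same, with a difference of 0.02 (adjusted p = 0.65), while control FIPs were 0.11 ± 0.03 higher (adjusted p = 0.0027).

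Srebf1 encodes the SREBP that favours fatty acid genes, and Insig2 retains Scap. Srebf1 had 7.72, 7.73, 7.68, 7.54 and 7.55 log2 CPM in the labelled transgenic FIPs, against 7.92, 7.66, 7.74, 7.72 and 7.60 in the labelled transgenic APCs. For Srebf1, control FIPs gave 7.70, 7.81, 7.62, 7.68 and 7.73 log2 CPM, against 7.88, 7.89, 7.93, 7.94 and 8.22 in control APCs. Every control FIP library lay below every control APC library, a difference of -0.26 ± 0.06 (adjusted p = 0.0021), and the labelled transgenic ranges overlapped, with a difference of -0.08 (adjusted p = 0.32). The control difference for Srebf1 became 0.02 with the erythroid mean as a covariate. Insig2 had 6.40, 6.38, 6.49, 6.35 and 6.25 log2 CPM in the labelled transgenic FIPs, against 6.25, 6.28, 6.33, 6.30 and 6.38 in the labelled transgenic APCs. For Insig2, control FIPs gave 6.44, 6.43, 6.54, 6.43 and 6.39 log2 CPM, against 6.22, 6.14, 6.31, 6.18 and 6.32 in control APCs. Control FIPs lay wholly above control APCs for Insig2, by 0.21 ± 0.05 (adjusted p = 0.00071), and the labelled transgenic difference of 0.07 did not pass (adjusted p = 0.26). Insig1, an SREBP target as well as its brake, was lower in FIPs, with differences of -0.12 and -0.12 in labelled transgenic and control mice (adjusted p = 0.04 and 0.042). Its call was lost in 6 of 10 fits that left out 1 library in each genotype, with adjusted p up to 0.14 and 0.12: without labelled transgenic FIP replicate 1, 2, 3 or 5 or APC replicate 1 or 4, and without control FIP replicate 3, 4 or 5 or APC replicate 1, 3 or 5. Srebf2, the SREBP that favours cholesterol genes, averaged 8.27 ± 0.07 log2 CPM in FIPs and 8.34 ± 0.12 in APCs of labelled transgenic mice, and 8.30 ± 0.11 in FIPs and 8.22 ± 0.09 in APCs of control mice. Neither Srebf2 (95% intervals -0.19 to 0.05 and -0.04 to 0.21) nor Scap (-0.22 to 0.03 and -0.14 to 0.11) passed the test.

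The early steps were mixed. Of the 5 genes up to mevalonate decarboxylation, 4 were higher in FIPs of labelled transgenic mice and 2 in control mice, and none was lower. Those higher were 80% and 40% of the 5, against 22.7% and 19.6% of all tested genes. Mvd (ENSMUSG00000006517, chr8:122433601-122443422, minus strand) makes isopentenyl diphosphate by decarboxylation and had the largest difference of the 30 in both genotypes. Mvd had 4.98, 4.94, 4.76, 5.24 and 5.47 log2 CPM in the labelled transgenic FIPs, against 3.78, 3.81, 3.52, 4.15 and 3.58 in the labelled transgenic APCs. For Mvd, control FIPs gave 5.24, 5.38, 4.84, 5.13 and 5.31 log2 CPM, against 3.95, 4.01, 3.94, 4.21 and 4.29 in control APCs. The lowest FIP library exceeded the highest APC library by a wide margin in each genotype, and the mean was 2.48-fold higher in labelled transgenic FIPs (1.31 ± 0.13, adjusted p = 8.3e-08) and 2.14-fold higher in control FIPs (1.10 ± 0.13, adjusted p = 1.1e-06). Mvk, mevalonate kinase, showed a smaller difference of the same direction. Mvk had 5.32, 5.23, 5.21, 5.32 and 5.49 log2 CPM in the labelled transgenic FIPs, against 4.91, 4.96, 4.86, 5.03 and 4.88 in the labelled transgenic APCs. For Mvk, control FIPs gave 5.26, 5.44, 4.96, 5.30 and 5.36 log2 CPM, against 5.06, 5.08, 4.81, 4.74 and 5.04 in control APCs. The labelled transgenic groups did not overlap and the control groups did, with differences of 0.39 ± 0.08 (adjusted p = 0.00077) and 0.32 ± 0.08 (adjusted p = 0.0038).

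Pmvk, the kinase that follows Mvk, passed in labelled transgenic mice. Pmvk had 5.01, 4.89, 4.80, 4.91 and 5.08 log2 CPM in the labelled transgenic FIPs, against 4.73, 4.11, 4.34, 4.39 and 4.0 in the labelled transgenic APCs. For Pmvk, control FIPs gave 4.95, 4.85, 4.64, 4.81 and 4.95 log2 CPM, against 4.58, 4.54, 4.62, 4.63 and 5.02 in control APCs. The labelled transgenic FIPs all lay above the APCs, by 0.62 ± 0.11 (adjusted p = 0.00013), and the control difference was 0.16 ± 0.11 (adjusted p = 0.25), where control APC replicate 5 alone reached the FIP range. Acat2, the cytosolic thiolase that condenses acetyl-CoA, also passed there. Acat2 had 5.94, 5.74, 5.70, 5.93 and 6.20 log2 CPM in the labelled transgenic FIPs, against 5.95, 5.37, 5.40, 5.41 and 5.12 in the labelled transgenic APCs. For Acat2, control FIPs gave 5.80, 5.94, 5.64, 5.93 and 5.93 log2 CPM, against 5.69, 5.69, 5.96, 5.96 and 6.32 in control APCs. Its difference was 0.45 ± 0.13 in labelled transgenic mice (adjusted p = 0.009) and -0.08 ± 0.13 in control mice (adjusted p = 0.67), with overlap in both. Hmgcs1, the synthase that makes HMG-CoA and the gene with the sterol response element printed above, did not pass in either. Hmgcs1 had 7.29, 7.28, 7.22, 7.45 and 7.37 log2 CPM in the labelled transgenic FIPs, against 7.38, 7.32, 7.26, 7.52 and 7.19 in the labelled transgenic APCs. For Hmgcs1, control FIPs gave 7.49, 7.48, 7.32, 7.40 and 7.44 log2 CPM, against 7.34, 7.36, 7.30, 7.29 and 7.35 in control APCs. The ranges overlapped, and 95% intervals of -0.12 to 0.10 in labelled transgenic and -0.01 to 0.21 in control mice were the bounds on its difference.

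**Figure D2:**
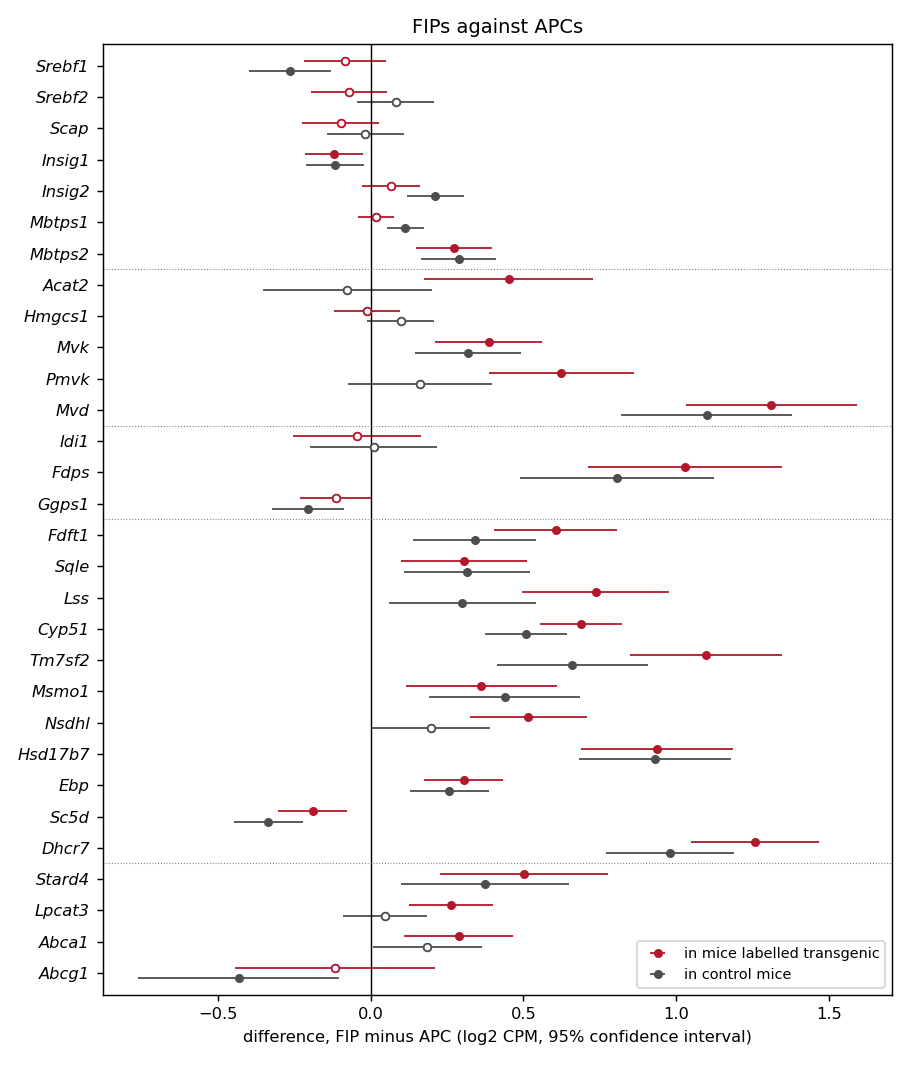
Difference between FIPs and APCs for the 30 genes (rows, by role) on the log2 CPM scale, with 95% intervals from limma, for labelled transgenic and control mice. Mvd, Dhcr7, Hsd17b7, Tm7sf2 and Fdps lie farthest to the right in both, and Sc5d lies left of 0 in both.

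The 3 isoprenoid genes each did something else. Fdps, farnesyl diphosphate synthase, stands where the route to sterols and the route to prenyl groups part. Fdps had 3.07, 3.09, 2.70, 3.27 and 3.74 log2 CPM in the labelled transgenic FIPs, against 2.01, 2.08, 2.16, 2.10 and 2.38 in the labelled transgenic APCs. For Fdps, control FIPs gave 3.04, 2.96, 2.58, 3.08 and 3.03 log2 CPM, against 2.05, 2.19, 2.17, 1.93 and 2.32 in control APCs. FIPs lay wholly above APCs in both, by 1.03 ± 0.15 (adjusted p = 1.3e-05) and 0.81 ± 0.15 (adjusted p = 0.00022). The level of Fdps per kilobase of merged exons was the lowest of the 30. Its pseudogene copy Gm3571 differed the same way, by 1.02 (adjusted p = 1.8e-05) and 0.49 (adjusted p = 0.014), and how the reads split between them cannot be told apart. Ggps1 makes the geranylgeranyl diphosphate used for protein prenylation. Ggps1 had 5.83, 5.61, 5.81, 5.77 and 5.71 log2 CPM in the labelled transgenic FIPs, against 5.92, 5.82, 5.90, 5.95 and 5.71 in the labelled transgenic APCs. For Ggps1, control FIPs gave 5.67, 5.77, 5.68, 5.67 and 5.72 log2 CPM, against 6.01, 5.79, 5.94, 5.78 and 6.01 in control APCs. Control FIPs all lay below control APCs, a difference of -0.20 ± 0.06 (adjusted p = 0.0055), and the labelled transgenic difference was -0.11 ± 0.06 (adjusted p = 0.12). Idi1, the isomerase of isopentenyl diphosphate, differed by -0.04 and 0.01 and passed in neither (adjusted p = 0.76 and 0.94). Idi1 had 6.30, 6.21, 6.20, 6.56 and 6.45 log2 CPM in the labelled transgenic FIPs, against 6.42, 6.33, 6.21, 6.68 and 6.30 in the labelled transgenic APCs. For Idi1, control FIPs gave 6.43, 6.36, 6.03, 6.15 and 6.22 log2 CPM, against 6.38, 6.47, 6.03, 6.21 and 6.05 in control APCs. The Idi1 ranges overlapped in both genotypes.

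The squalene and sterol steps moved most uniformly: 10 of 11 were higher in FIPs of labelled transgenic mice and 9 of 11 in control mice, and Sc5d was lower in both. Those higher were 90.9% and 81.8% of the 11, against 22.7% and 19.6% of all tested genes. Dhcr7 (ENSMUSG00000058454, chr7:143823145-143848410, plus strand) is the reductase of a final step to cholesterol. Dhcr7 had 5.71, 6.08, 5.78, 5.68 and 6.08 log2 CPM in the labelled transgenic FIPs, against 4.73, 4.56, 4.60, 4.70 and 4.45 in the labelled transgenic APCs. For Dhcr7, control FIPs gave 5.74, 5.89, 5.71, 5.68 and 5.48 log2 CPM, against 4.44, 4.82, 4.62, 4.74 and 4.99 in control APCs. All FIP libraries lay above all APC libraries of their genotype, and the mean was 2.39-fold higher in labelled transgenic FIPs (1.26 ± 0.10, adjusted p = 2.1e-09) and 1.97-fold higher in control FIPs (0.98 ± 0.10, adjusted p = 1e-07). Cyp51 (ENSMUSG00000001467, chr5:4081145-4104746, minus strand) demethylates lanosterol. Cyp51 had 6.89, 6.80, 6.86, 7.01 and 7.14 log2 CPM in the labelled transgenic FIPs, against 6.25, 6.24, 6.27, 6.36 and 6.14 in the labelled transgenic APCs. For Cyp51, control FIPs gave 7.04, 7.08, 6.76, 6.94 and 7.02 log2 CPM, against 6.37, 6.57, 6.43, 6.46 and 6.47 in control APCs. The groups were again apart in both genotypes, by 0.69 ± 0.06 (adjusted p = 2e-08) and 0.51 ± 0.06 (adjusted p = 1.7e-06).

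Hsd17b7 (ENSMUSG00000026675, chr1:169949535-169969241, minus strand) reduces the keto group left after removal of the sterol methyl groups. Hsd17b7 had 6.02, 5.96, 6.09, 6.30 and 6.35 log2 CPM in the labelled transgenic FIPs, against 5.03, 5.17, 5.26, 5.44 and 5.14 in the labelled transgenic APCs. For Hsd17b7, control FIPs gave 6.34, 6.35, 6.06, 6.29 and 6.34 log2 CPM, against 5.67, 5.70, 5.27, 5.03 and 5.06 in control APCs. The differences were close to each other, 0.94 ± 0.12 (adjusted p = 1.8e-06) and 0.93 ± 0.12 (adjusted p = 2.2e-06), although control APCs spread more widely, over 5.35 ± 0.32 log2 CPM. Sc5d (ENSMUSG00000032018, chr9:42251595-42264256, minus strand) is the desaturase just before the last reductions. Sc5d had 6.60, 6.56, 6.46, 6.57 and 6.64 log2 CPM in the labelled transgenic FIPs, against 6.86, 6.65, 6.71, 6.84 and 6.72 in the labelled transgenic APCs. For Sc5d, control FIPs gave 6.53, 6.66, 6.36, 6.48 and 6.51 log2 CPM, against 6.76, 6.87, 6.76, 6.85 and 6.97 in control APCs. Every FIP library lay below every APC library of its genotype, and FIPs were 1.14-fold lower in labelled transgenic mice (-0.19 ± 0.05, adjusted p = 0.0077) and 1.26-fold lower in control mice (-0.33 ± 0.05, adjusted p = 4.5e-05).

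Fdft1, squalene synthase, commits farnesyl diphosphate to sterols, and Lss, lanosterol synthase, closes the sterol rings. Fdft1 had 5.61, 5.52, 5.63, 5.87 and 5.94 log2 CPM in the labelled transgenic FIPs, against 5.18, 4.95, 5.19, 5.27 and 4.95 in the labelled transgenic APCs. For Fdft1, control FIPs gave 5.85, 6.06, 5.52, 5.82 and 5.85 log2 CPM, against 5.42, 5.53, 5.35, 5.42 and 5.68 in control APCs. FIPs were higher by 0.61 ± 0.10 in labelled transgenic mice, with no overlap (adjusted p = 3e-05), and by 0.34 ± 0.10 in control mice, where ranges overlapped (adjusted p = 0.0065). Lss had 5.70, 5.47, 5.48, 5.89 and 6.22 log2 CPM in the labelled transgenic FIPs, against 5.17, 4.90, 5.06, 5.16 and 4.79 in the labelled transgenic APCs. For Lss, control FIPs gave 5.70, 5.79, 5.53, 5.73 and 5.73 log2 CPM, against 5.28, 5.27, 5.37, 5.42 and 5.64 in control APCs. Lss differed by 0.74 ± 0.12 (adjusted p = 2.4e-05), again with no overlap, and by 0.30 ± 0.12 in control mice (adjusted p = 0.037). The control call for Lss was lost in 8 of 10 fits that left out 1 library, with adjusted p up to 0.083, and held only without control FIP replicate 3 or control APC replicate 5. Tm7sf2, a sterol reductase, averaged 4.47 ± 0.26 log2 CPM in FIPs and 3.37 ± 0.17 in APCs of labelled transgenic mice, 2.14-fold higher (adjusted p = 1.9e-07). In control mice it averaged 4.20 ± 0.16 in FIPs and 3.54 ± 0.16 in APCs, 1.58-fold higher (adjusted p = 0.00013; SD, n = 5 each).

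The other sterol enzymes follow. Sqle, squalene epoxidase, was higher in FIPs by 0.31 and 0.32 (adjusted p = 0.017 and 0.012), and Msmo1, the methyl sterol oxidase, by 0.36 and 0.44 (adjusted p = 0.018 and 0.0047), for labelled transgenic and control mice in that order. The labelled transgenic call of Sqle was lost without FIP replicate 5 or APC replicate 1 (adjusted p up to 0.053), and that of Msmo1 without FIP replicate 4 or 5 (up to 0.065). Ebp, the sterol isomerase, was higher by 0.30 and 0.26 (adjusted p = 0.00041 and 0.0018) with no overlap in either genotype. Nsdhl, the dehydrogenase of the demethylation complex, was higher by 0.52 in labelled transgenic mice (adjusted p = 0.00011), and its control difference of 0.20 did not pass (adjusted p = 0.084).

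**Figure D3:**
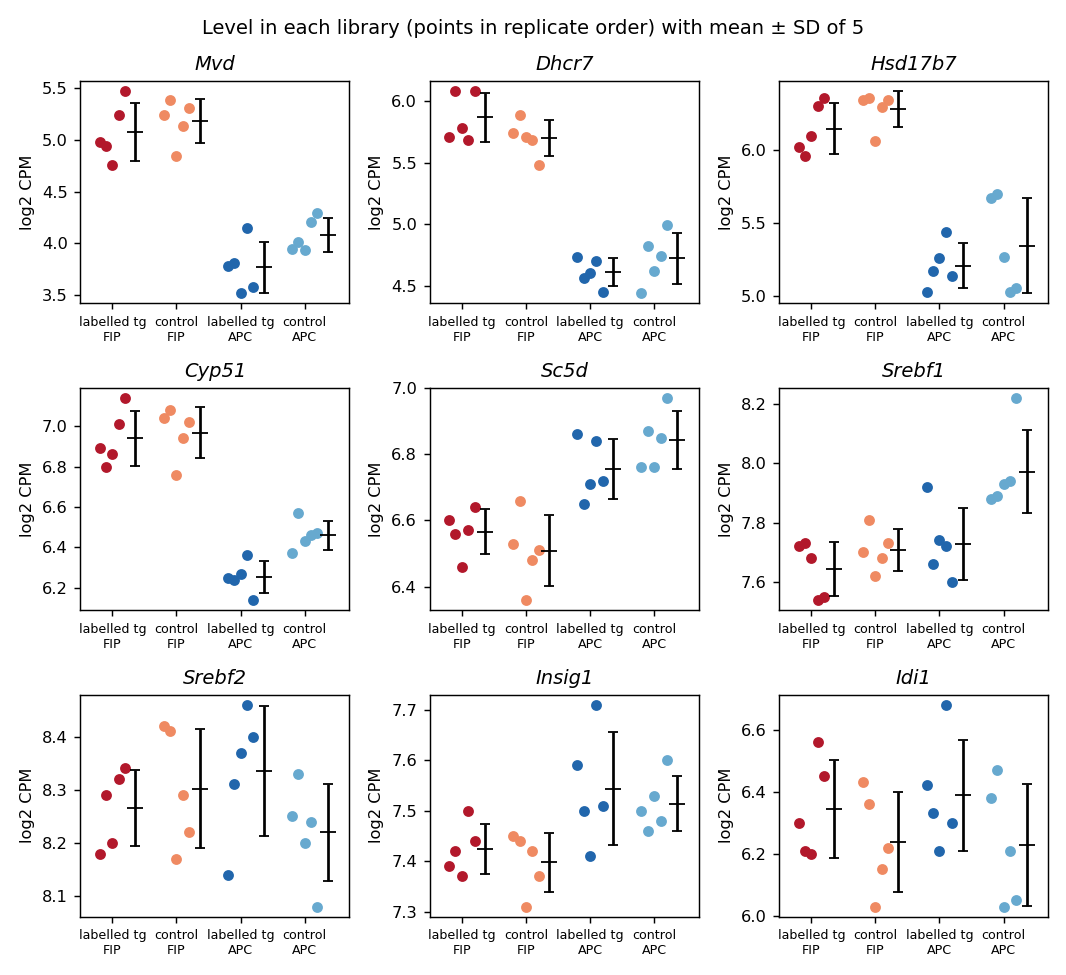
Level of selected genes in each library (points, log2 CPM on the vertical axis) by group, in the order labelled transgenic FIPs, control FIPs, labelled transgenic APCs and control APCs, with the mean and SD of 5 libraries. For Mvd, Dhcr7, Hsd17b7 and Cyp51 every FIP point lies above every APC point of its genotype, and for Sc5d below.

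Of the 4 efflux and transport genes, 3 (75%) were higher in FIPs of labelled transgenic mice, against 22.7% of all tested genes. In control mice 1 was higher and 1 lower (25% each), close to the 19.6% and 27.9% of all tested genes. Stard4 carries sterol through the cytosol. Stard4 had 5.81, 5.68, 5.72, 6.07 and 6.14 log2 CPM in the labelled transgenic FIPs, against 5.37, 5.24, 5.39, 5.74 and 5.17 in the labelled transgenic APCs. For Stard4, control FIPs gave 5.94, 6.16, 5.59, 6.01 and 5.80 log2 CPM, against 5.83, 5.78, 5.39, 5.44 and 5.19 in control APCs. FIPs were higher by 0.50 ± 0.13 (adjusted p = 0.004) and 0.37 ± 0.13 (adjusted p = 0.024), with overlap in both, and the control call was lost without control FIP replicate 2 or 4 or control APC replicate 3, 4 or 5 (adjusted p up to 0.079). Abcg1 exports cholesterol to lipoprotein particles. Abcg1 had 3.20, 3.56, 3.66, 3.16 and 3.71 log2 CPM in the labelled transgenic FIPs, against 3.66, 3.59, 3.60, 3.66 and 3.36 in the labelled transgenic APCs. For Abcg1, control FIPs gave 2.88, 3.95, 3.75, 3.62 and 3.69 log2 CPM, against 3.88, 4.0, 4.08, 3.85 and 4.24 in control APCs. Control FIPs were lower than control APCs, a difference of -0.43 ± 0.16 (adjusted p = 0.029), a call lost without control FIP replicate 1 or control APC replicate 3 or 5 (adjusted p up to 0.097), and the labelled transgenic difference was -0.12 (adjusted p = 0.59).

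Abca1, which loads lipid-poor apolipoprotein with cholesterol, was the exporter with the higher level per length (5.11 log2 CPM per kilobase, against 0.79 for Abcg1). Abca1 had 8.59, 8.64, 8.49, 8.76 and 8.89 log2 CPM in the labelled transgenic FIPs, against 8.56, 8.33, 8.03, 8.55 and 8.46 in the labelled transgenic APCs. For Abca1, control FIPs gave 8.53, 8.53, 8.55, 8.58 and 8.44 log2 CPM, against 8.53, 8.33, 8.31, 8.30 and 8.23 in control APCs. FIPs were higher by 0.29 ± 0.09 in labelled transgenic mice (adjusted p = 0.0095), while the control difference of 0.19 ± 0.09 did not pass (adjusted p = 0.079). Lpcat3 remodels phospholipids and, like the exporters, is an LXR target. Lpcat3 had 6.09, 6.25, 6.06, 6.24 and 6.30 log2 CPM in the labelled transgenic FIPs, against 6.04, 5.96, 5.92, 5.91 and 5.79 in the labelled transgenic APCs. For Lpcat3, control FIPs gave 6.15, 6.27, 6.04, 6.12 and 6.21 log2 CPM, against 5.97, 6.06, 6.12, 6.05 and 6.35 in control APCs. Its labelled transgenic groups did not overlap and differed by 0.26 ± 0.07 (adjusted p = 0.0027), and its control difference was 0.05 (adjusted p = 0.58).

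The second question was whether the transgene's label goes with a change of the pathway within a population. In FIPs, none of the 30 genes passed in limma, where 0.373% of all tested genes did, and none had groups that did not overlap (2.89% of all). At an unadjusted p under 0.05 there was 1 of the 30 (3.33%), against 10.6% of all tested genes. That gene was Tm7sf2, at 4.44, 4.33, 4.26, 4.39 and 4.91 log2 CPM in labelled transgenic FIPs, against 4.19, 4.18, 3.94, 4.35 and 4.33 in control FIPs. The ranges overlapped, and labelled transgenic FIP replicate 5 stood above the rest, for a difference of 0.27 ± 0.12 (adjusted p = 0.43). The median difference of the 30 was 0.01, against 0.01 over all tested genes, and the 95% intervals of all 30 lay between -0.45 and 0.55. Mvd differed by -0.10 (interval -0.38 to 0.18), Dhcr7 by 0.17 (-0.04 to 0.38), Cyp51 by -0.03 (-0.16 to 0.11) and Srebf2 by -0.04 (-0.16 to 0.09). No marker of another cell type passed between the FIP groups, and no tool other than limma was run. At an unadjusted p under 0.05, 8 of 14 macrophage and 3 of 8 adipocyte markers were below 0 in labelled transgenic FIPs, and 5 of 7 endothelial and 3 of 8 mural markers above it. Their part in the members' values was not tested.

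In APCs, 5 of the 30 genes were lower in the labelled transgenic libraries and none was higher: Srebf1, Acat2, Fdft1, Lss and Cyp51. Of all tested genes 8.01% were called, 5.91% lower and 2.1% higher, and the 5 are 16.7% of the 30. At an unadjusted p under 0.05, 10 of the 30 were below 0 (33.3%, against 17.6% of all tested genes) and 1, Mbtps1, was above 0 (0.08, adjusted p = 0.077; 7.86% of all). The median difference was -0.07, against -0.03 over all tested genes, and with each library centred on its median both turned positive, to 0.03 and 0.07. Values did not overlap for 4 genes, all lower in the labelled transgenic APCs (Fdft1, Lss, Cyp51 and Abcg1), where 2.92% of all tested genes did not overlap, 1.42% lower. Both APC groups also served in the contrasts between the populations above, so these comparisons share libraries.

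Fdft1 had 5.18, 4.95, 5.19, 5.27 and 4.95 log2 CPM in labelled transgenic APCs, against 5.42, 5.53, 5.35, 5.42 and 5.68 in control APCs. The groups did not overlap, and labelled transgenic APCs were 1.29-fold lower (-0.37 ± 0.10, adjusted p = 0.03; SE). Lss had 5.17, 4.90, 5.06, 5.16 and 4.79 log2 CPM in labelled transgenic APCs, against 5.28, 5.27, 5.37, 5.42 and 5.64 in control APCs, a gap between the groups and a 1.30-fold lower mean (-0.38 ± 0.12, adjusted p = 0.047). Cyp51 had 6.25, 6.24, 6.27, 6.36 and 6.14 log2 CPM in labelled transgenic APCs, against 6.37, 6.57, 6.43, 6.46 and 6.47 in control APCs. The highest labelled transgenic library was 0.01 below the lowest control library, and the mean was 1.16-fold lower (-0.21 ± 0.06, adjusted p = 0.049). Acat2 had 5.95, 5.37, 5.40, 5.41 and 5.12 log2 CPM in labelled transgenic APCs, against 5.69, 5.69, 5.96, 5.96 and 6.32 in control APCs. Labelled transgenic APC replicate 1 lay inside the control range and the other 4 below it, a 1.39-fold lower mean (-0.47 ± 0.13, adjusted p = 0.038). Srebf1 had 7.92, 7.66, 7.74, 7.72 and 7.60 log2 CPM in labelled transgenic APCs, against 7.88, 7.89, 7.93, 7.94 and 8.22 in control APCs, with the same replicate 1 inside the control range and control APC replicate 5 above all others (-0.24 ± 0.06, adjusted p = 0.032). Abcg1, whose groups did not overlap, averaged 3.57 ± 0.12 in labelled transgenic and 4.01 ± 0.16 log2 CPM in control APCs (-0.44 ± 0.16, adjusted p = 0.085). Other enzymes did not pass: Mvd differed by -0.31 (adjusted p = 0.15), Pmvk by -0.36 (0.052), Dhcr7 by -0.11 (0.52) and Fdps by 0.01 (0.97).

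**Figure D4:**
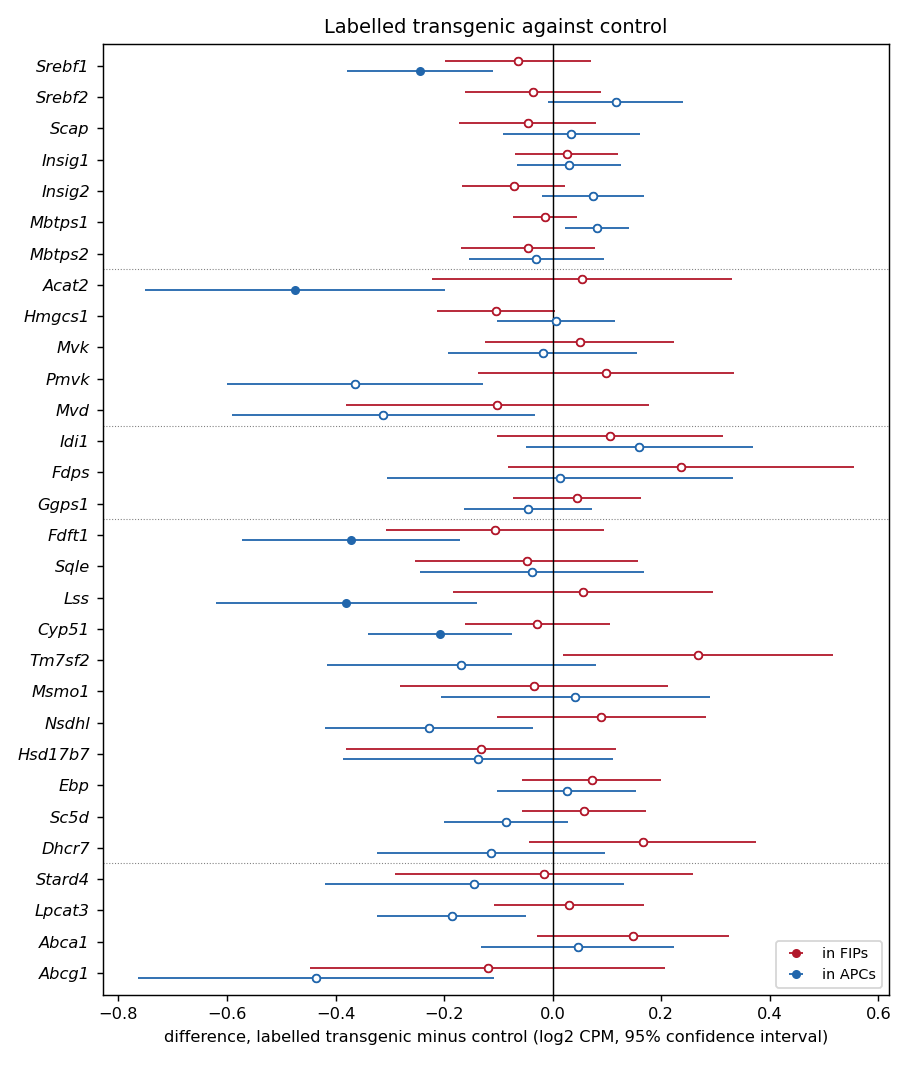
Difference between labelled transgenic and control libraries for the 30 genes (rows, by role) on the log2 CPM scale, with 95% intervals from limma, in FIPs and in APCs. In APCs Srebf1, Acat2, Fdft1, Lss and Cyp51 passed the threshold, all below 0, and in FIPs no gene did.

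These 5 calls depended on single libraries, and markers of other cells moved with them. The count of the 30 called was 10 (2 higher, 8 lower) without labelled transgenic APC replicate 1 and 8 without control APC replicate 1. It was 1 without labelled transgenic APC replicate 3 or 4 or control APC replicate 3 or 4, and 0 without labelled transgenic APC replicate 2 or 5 or control APC replicate 5. It was 5 without control APC replicate 2. Over all tested genes, in place of 1396, the calls were 2849 and 2471 in the fits without labelled transgenic or control APC replicate 1, 1801 without control replicate 2, and 181 to 603 in the others. With the 10 APC libraries fitted alone none of the 30 was called, with 11 at an unadjusted p under 0.05, and none of all tested genes was, with 3602 at that threshold. In the labelled transgenic APCs 6 of 6 erythroid, 4 of 8 adipocyte, 9 of 14 macrophage, 1 of 7 endothelial, 1 of 8 mural and 1 of 5 mesothelial markers were lower, and so were 6 of 6 FIP markers. The adipocyte mean ranged from 6.68 to 7.45 in labelled transgenic APCs, against 7.19 to 7.77 in control APCs, the erythroid mean from 5.002 to 6.30, against 5.87 to 6.80, and the macrophage mean from 3.30 to 4.15, against 4.06 to 4.77. With the adipocyte mean as a covariate, 0 of the 30 were called in limma (7 at an unadjusted p under 0.05), with the erythroid mean 0 (5) and with the macrophage mean 0 (6). Under these covariates 9, 5 and 14 of all 17435 tested genes were called, in place of 1396. At an unadjusted p under 0.05 in limma there were 1766, 1233 and 1691 of all tested genes. The difference for Srebf1 then was -0.07 with the adipocyte and -0.03 with the erythroid covariate, and that for Acat2 -0.30 and -0.15. For Fdft1 it was -0.41 and -0.38, for Lss -0.43 and -0.35, and for Cyp51 -0.28 and -0.25.

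Labelled transgenic APC replicate 1 stood apart from its group in the adipocyte, erythroid and mesothelial markers. Its erythroid mean was 6.305, against 5.002 to 5.448 in the rest of its group, and its mesothelial mean 4.498, against 3.562 to 4.02. Over the 10 APC libraries, Srebf1 ranked in the same order as the adipocyte mean, and Acat2 nearly so. The erythroid mean gave the order of Srebf1 too, except that control APC replicates 4 and 5 changed places. In labelled transgenic APC replicate 1 the adipocyte mean of 7.45 was close to those of control APC replicates 3 and 4 (7.47 and 7.48). Its Srebf1 (7.92) and Acat2 (5.95) were likewise close to those of control replicates 3 and 4, which had 7.93 and 7.94 for Srebf1 and 5.96 and 5.96 for Acat2. Its Fdft1 (5.18), Lss (5.17) and Cyp51 (6.25) stayed below them: control replicates 3 and 4 had 5.35 and 5.42, 5.37 and 5.42, and 6.43 and 6.46. Its mean of the FIP markers (4.89) also stayed with its group. That mean ranged from 4.71 to 4.90 in labelled transgenic APCs, against 5.145 to 5.43 in control APCs, without overlap. No fit had the FIP-marker mean as a covariate. The part of other cell types in the 5 differences beyond these values was not tested.

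**Figure D5:**
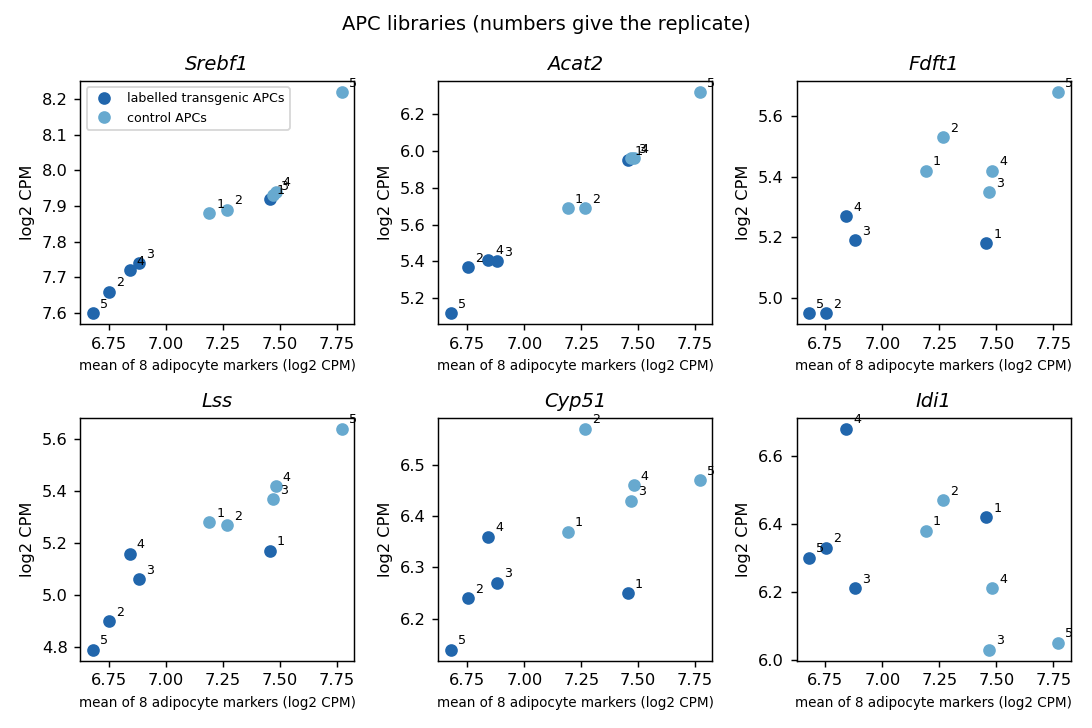
Level of the 5 genes called in APCs, and of Idi1, which was not called (vertical axes, log2 CPM), against the mean of the 8 adipocyte markers (horizontal axes, log2 CPM) in each APC library, by genotype label. Labelled transgenic APC replicate 1, at an adipocyte mean of 7.45, sits among the control points for Srebf1 and Acat2 and below them for Fdft1, Lss and Cyp51.

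Whether the difference between FIPs and APCs itself changed with the label was tested as an interaction. None of the 30 genes passed in limma, and none of the 17435 tested did (0%). At an unadjusted p under 0.05 there were 8 of the 30 (26.7%), against 13.7% of all tested genes (10.7% above 0 and 3.01% below). The difference, FIPs minus APCs, was greater on this count in labelled transgenic mice for 6 of these, Pmvk by 0.46, Acat2 by 0.53, Lss by 0.44, Tm7sf2 by 0.44, Nsdhl by 0.32 and Lpcat3 by 0.22. It was smaller for Mbtps1 (-0.10) and Insig2 (-0.15). Acat2 averaged 5.90 and 5.85 log2 CPM in labelled transgenic and control FIPs, and 5.45 and 5.92 in the APCs. For Tm7sf2 the same means were 4.47 and 4.20 in FIPs, and 3.37 and 3.54 in APCs. At the same threshold 5 of 6 erythroid, 6 of 7 endothelial, 5 of 8 mural, 1 of 5 mesothelial, 1 of 5 APC and 4 of 6 FIP markers were above 0 too, and their part was not tested. The smallest adjusted p was 0.25, for Pmvk, so the genes that passed in 1 genotype only are not shown to differ between them. Without labelled transgenic APC replicate 1, Acat2 and Pmvk passed, among 331 of all tested genes (288 above 0 and 43 below).

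Libraries of a group varied in the 19 pathway enzymes jointly. The mean over the enzymes ranged from 5.58 to 5.98 log2 CPM in labelled transgenic FIPs, 5.50 to 5.82 in control FIPs, 5.10 to 5.34 in labelled transgenic APCs and 5.28 to 5.46 in control APCs. FIP and APC libraries did not overlap on that mean in either genotype. Labelled transgenic FIP replicate 5 was the highest of its group for 16 of the 19 enzymes and control FIP replicate 2 for 13, while control FIP replicate 3 was the lowest for 17. Among APCs, labelled transgenic replicate 4 and control replicate 5 were each highest for 11. Labelled transgenic FIP replicates 4 and 5, the highest for the enzymes in their group, had the lowest adipocyte means of the 20 libraries (6.17 and 6.11), and control FIP replicate 3 had one of 6.85, inside its group's range. Estimated depth was lowest among FIPs in control replicate 3 (6.76 megareads) and highest in labelled transgenic replicate 5 (8.5). Labelled transgenic APC replicate 4 was the deepest of its group (8.37). Control FIP replicate 2 (7.61) and control APC replicate 5 (7.63) lay inside the depth ranges of their groups. The part of depth was not tested.

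Further lists of related genes set the 30 beside the rest of lipid metabolism. Of 31 other cholesterol genes in the table, 10 were higher and 2 lower in FIPs of labelled transgenic mice, and 8 were higher and 5 lower in control mice, with medians of -0.01 and 0.04. Higher were 32.3% and 25.8% of the 31, against 22.7% and 19.6% of all tested genes. Lower were 6.45% and 16.1% of the 31, against 19% and 27.9% of all tested genes. Nr1h3, which encodes LXR alpha, ran opposite to the sterol enzymes. It was lower in FIPs, with differences of -0.88 ± 0.05 (adjusted p = 2.9e-12) and -0.81 ± 0.05 (adjusted p = 1.2e-11). Nr1h3 had 5.64, 5.54, 5.51, 5.42 and 5.44 log2 CPM in labelled transgenic FIPs, against 6.36, 6.45, 6.42, 6.38 and 6.32 in labelled transgenic APCs, and control libraries divided the same way, 5.42, 5.57, 5.52, 5.59 and 5.63 in FIPs against 6.32, 6.29, 6.36, 6.42 and 6.38 in APCs. Npc2, which hands sterol out of the lysosome, was higher by 0.20 and 0.21 (adjusted p = 1.9e-05 and 1.3e-05). Scarb1, Acat1 and Hsd17b12 were among those lower in control FIPs. Between genotypes none of the 31 passed in FIPs, and 4 (12.9%) had an unadjusted p under 0.05 in limma, against 10.6% of all tested genes. In APCs Nceh1, a cholesteryl ester hydrolase, and Acat3 were lower in labelled transgenic libraries (-0.55 and -0.63, adjusted p = 0.017 and 0.034). These 2 were 6.45% of the list, close to the 5.91% of all tested genes that were lower. Acat3 shares sequence with Acat2, as given above. Genes of this paragraph outside the 4 per list with the smallest adjusted p were picked after their values were seen.

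Of the 18 fatty acid genes known as SREBP targets, most were lower in FIPs of control mice. In labelled transgenic mice 1, the desaturase Scd2, was higher in FIPs (0.80) and 3 were lower, while in control mice 1, the desaturase Fads1, was higher (0.15) and 14 were lower, with medians of -0.21 and -0.60. The lower ones were 16.7% and 77.8% of the list, against 19% and 27.9% of all tested genes. The interaction passed for none of the 18. At an unadjusted p under 0.05 in limma, 8 (44.4%) were above 0, against 10.7% of all tested genes. Mid1ip1, a partner of acetyl-CoA carboxylase, was lower, with differences of -0.49 ± 0.09 and -0.60 ± 0.09 (adjusted p = 9.6e-05 and 1e-05). Gpam, the first acyltransferase of triglyceride synthesis, was lower, with differences of -0.30 ± 0.09 and -0.63 ± 0.09 (adjusted p = 0.012 and 1.2e-05). Lpin1, a phosphatidate phosphatase, differed by -0.34 ± 0.13 and -0.70 ± 0.13 (adjusted p = 0.0496 and 0.00027). Acacb, an acetyl-CoA carboxylase that restrains fat oxidation, differed by -0.44 ± 0.22 (adjusted p = 0.12) and -1.12 ± 0.22 (adjusted p = 0.00037). In APCs 11 of the 18 (61.1%) were lower in labelled transgenic than in control libraries, against 5.91% of all tested genes. None was higher, against 2.1%, and the median was -0.44. With the APC libraries fitted alone, none of all tested genes was called. In FIPs none passed in limma. There 1 (5.56%) had an unadjusted p under 0.05 in limma, against 10.6% of all tested genes. Adipocytes also express these fatty acid genes strongly, and the adipocyte means given above moved the same way between FIPs and APCs and between the APC groups. Their part in these differences was not tested.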

How the data were processed

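PolyA RNA of 20 libraries was sequenced. Per the submitters' processing notes, Trim Galore 0.4.1, HISAT2 2.0.1, featureCounts 1.4.6 and DESeq2 1.6.3 were among the tools and GRCm38 (mm10) was the build; their order and strand options are left unstated in the sources used here. The deposited values are log2 CPM to 2 decimals, which the authors made, with CPM of 1 or less listed as 0. Only 75.3 to 79.9% of low values fell on whole reads, so no count model was used. Genes above 0 in at least 5 libraries were tested with limma 3.58.1 (trend, R 4.3.3) in 1 fit of 4 group means with 16 residual degrees of freedom. In simulated data, differences of 0.25 log2 units between 2 groups were called for 36 to 48% of changed genes, and of 0.5 for 76 to 88%. For the interaction these were 20% and 66%, so small differences can be missed. The simulated noise was independent between genes and leaves out joint variation of libraries. Zeros are censored values, which understates differences of low genes. The genes and lists were chosen with earlier results of these data known. All 30 genes may be named; values per library are given for those called between genotypes and for up to 4 of each role with the smallest adjusted p between FIPs and APCs of control mice, and up to 4 of each further list are named by the same measure. Some genes of the lists are not reported here, although counts include them. Faxdc2 of the cholesterol list did not match the table. Coordinates are from GENCODE M21 (GRCm38). Replicate numbers were not taken as pairs, so the reported fit has no block; a fit with one is among the alternatives. Pooling was within 2 mice, and p values measure the spread between pools.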

Additional observations from a re-analysis of the deposited data

Results flagged for a closer look

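Of 120 combinations of a gene and a group of 5 libraries, 8 had a library whose gap to the nearest other exceeded the critical share of the range (0.71), and chance alone gives about 1 in 20, or 6. Srebf1 was 8.22 log2 CPM in control APC replicate 5, against 7.88 to 7.94 in the other 4. Scap was 6.32 in control FIP replicate 3, against 6.52 to 6.60. Pmvk was 5.02 in control APC replicate 5, against 4.54 to 4.63. Fdps was 2.58 in control FIP replicate 3, against 2.96 to 3.08. Tm7sf2 was 4.91 in labelled transgenic FIP replicate 5, against 4.26 to 4.44. Msmo1 was 6.05 in labelled transgenic APC replicate 4, against 5.61 to 5.72. Hsd17b7 was 6.06 in control FIP replicate 3, against 6.29 to 6.35. Abcg1 was 3.36 in labelled transgenic APC replicate 5, against 3.59 to 3.66. Control FIP replicate 3 was the low library 3 times, and was the lowest of its group for 17 of the 19 enzymes, and control APC replicate 5 was the high library for Srebf1 and Pmvk.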

How the results depend on the processing

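For FIPs against APCs in control mice the count of the 30 genes called was 21 and moved to 9 with the erythroid mean and 11 with the adipocyte mean (the adipocyte setting was added after seeing the data), and to 17 to 21 when 1 library was left out. The difference of Srebf1 there was 0.0223 with the erythroid mean (adjusted p = 0.87), against -0.26 without it. In labelled transgenic mice the 21 calls became 19 to 22 when 1 library was left out. Between genotypes in FIPs the count was 0 under every alternative run (limma; 0 to 5 at an unadjusted p under 0.05). In APCs the 5 calls became 3 with log2(CPM + 1), 3 with log2(CPM + 0.1), 2 with no filter, 3 with centred libraries, 0 with the groups compared alone, and 0 with the erythroid, macrophage or adipocyte mean, and 0 to 10 when 1 library was left out. The interaction had 0 calls and 0 to 2 when 1 library was left out; fitting the groups compared alone does not apply to it. With the replicate number as a block the counts were 21 and 21 for FIPs against APCs in labelled transgenic and control mice, 0 in FIPs, 4 in APCs (Cyp51 lost, adjusted p = 0.061) and 0 for the interaction; the FIP and APC libraries of 1 number correlated at 0.059 to 0.333 in labelled transgenic and 0.036 to 0.269 in control mice, best with their own number in 2 and 3 of 5, not all above 0.1, so the numbers were not taken as pairs. Across genotypes, which share no mice, the same figures ran from -0.317 to 0.148. The block fitted a single effect per number over all 4 groups, so it also tied libraries of different mice. Its counts therefore cannot show what sharing of mice within a genotype did to the calls. Centring each library on its median moved the share of all called genes that were higher to 43.8% (54.5% as deposited) for FIPs against APCs in labelled transgenic mice, to 52.8% (41.3%) in control mice, to 51.9% (64.6%) between genotypes in FIPs and to 62.6% (26.2%) in APCs. It moved the median interaction over all genes to -0.06 from 0.05. The lowest value of the 30 genes in any library was 1.93 log2 CPM (Fdps), so none was listed at 0.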
